A study of Mus musculus with 4 samples.

Results

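The comparison was between XCR1-deficient (KO) and wild-type (WT) mouse type 1 conventional dendritic cells (cDC1), both given lipopolysaccharide (LPS) without added XCL1. Its members were all genes with a probe set of 1 symbol on the array, with X- and Y-linked genes left out: 21075 of 22180 such genes in the series. The 2 arrays are part of a set of 4, with 1 array in each combination of genotype and treatment, made from C57BL/6 mice of 10 weeks of age, female per the labels. WT and XCR1-deficient cells had received LPS at 100 ng/ml, and on the other 2 arrays also recombinant mouse XCL1 (rmXCL1) at 100 ng/ml, so every cell here had been exposed to LPS and no array shows cells without it. How the deficiency was made, the tissue, the way of isolating the cells and the duration of the treatment were not found in the labels. With 1 array per group the precision is limited by the number of arrays, and no difference below has an error, a replicate check or a p-value.

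XCR1 is a chemokine receptor coupled to inhibitory G proteins and is carried mainly by cDC1, the dendritic cells that take up material from dead cells and present it to CD8 T cells. Its ligand XCL1 is released mainly by natural killer cells and CD8 T cells. LPS is a bacterial cell wall component sensed by Toll-like receptor 4 (TLR4), which switches on NF-kB and, through a separate adaptor, type I interferon and the genes that interferon induces.

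All values are log2 array signals, or differences between them in which a positive value is a higher signal in the KO. A difference of 1 is 2-fold, and genes were counted at 1.5-fold (0.58). A gene counted as measured where at least 1 of the 2 arrays gave a signal of 5.43 (the overall median) or more, which 10459 of 16409 named genes reached after predicted genes, small RNAs and receptor segments were set apart. The limit is not a measured background. Where the lower of 2 signals lay under it, the fold was computed from the limit and is written "at least". Across the measured genes the signals of the WT and KO arrays correlated at Pearson's r = 0.988, and genes are not independent replicates.

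The labelled cell type and genotype were checked first. Of 12 cDC1 markers, 10 were measured, among them Ly75 (DEC-205) at 11.90 in WT and 11.94 in KO, the transcription factor Irf8 at 10.04 and 10.05, and Cd8a at 9.67 and 9.69. Of the 10, 5 differed upward and 5 downward, with a median of -0.06. Beside Xcr1, the lower ones included Tlr3 (-0.28) and Naaa (-0.27), and the higher ones Cd24a (0.28). Of 7 measured markers of conventional dendritic cells in general, 5 were above 0 and 2 below, with a median of 0.11 and Itgax at -0.32. Itgae (CD103) lay below the limit on both arrays, at 5.03 and 5.13. The probe set that reads Clec9a also reads Clec1b and is not named as 1 gene, with signals of 8.12 and 8.34. Xcr1 gave 6.42 in WT and 5.54 in KO, just above the limit and 1.83-fold lower, and with XCL1 it gave 7.19 and 5.11. The labels do not place the deletion, and probes that lie outside it check nothing.

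The sex-linked genes went against the labels. Xist, which is transcribed from the inactive X chromosome of female cells, gave 7.95 for WT and 4.64 for KO cells with LPS, and 7.91 and 4.57 with XCL1 added. The Y-linked Eif2s3y gave 8.57 in WT and 8.73 in KO, Uty 8.27 and 8.46, and Kdm5d 7.07 and 7.01, all well above the limit on arrays labelled female. Y-linked signal was therefore present on all 4 arrays and Xist signal only on the WT arrays. The names of the arrays in the labels also differ in their prefix between the genotypes, so a processing batch, whatever goes with the Xist difference and the genotype cannot be told apart in any difference below.

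The KO and WT arrays differed in a small share of genes, in both directions. Of the 10459 measured genes, 99 (0.947%) were at least 1.5-fold higher in the KO and 104 (0.994%) lower, 203 (1.94%) in all, and 15 and 3 reached 2-fold. The SD of the differences was 0.232 and their median -0.05, with 39.6% of genes above 0. Probe sets of the same gene differed from each other with an SD per probe set of 0.213, over 399 genes with more than 1 probe set past the limit. Centring each array on its gene median added 0.10 to every difference and moved the split from 99 higher and 104 lower to 185 higher and 48 lower, so the share of calls that were higher went from 48.8% to 79.4%. Centring moved the median of all measured genes from -0.05 to 0.05, so in neither split was that median at 0. Directions below are as deposited, and those of lists whose median lies near 0 depend on whether the arrays are centred.

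Dim genes held more of the calls than bright ones. Among genes with a mean signal under 6, 3.0% were past 1.5-fold (46 higher and 28 lower of 2469), and among those with a mean of at least 8 the share was 1.09% (21 higher and 11 lower of 2931). In 51 of the 203 genes the lower signal lay below the limit, and 159 remained past 1.5-fold when such signals were raised to it, 72 higher and 87 lower. Probe sets that name several genes were past 1.5-fold in 3.03% of 1187 cases, and predicted genes, small RNAs and receptor segments in 6.08% of 1168.

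**Figure D1:**
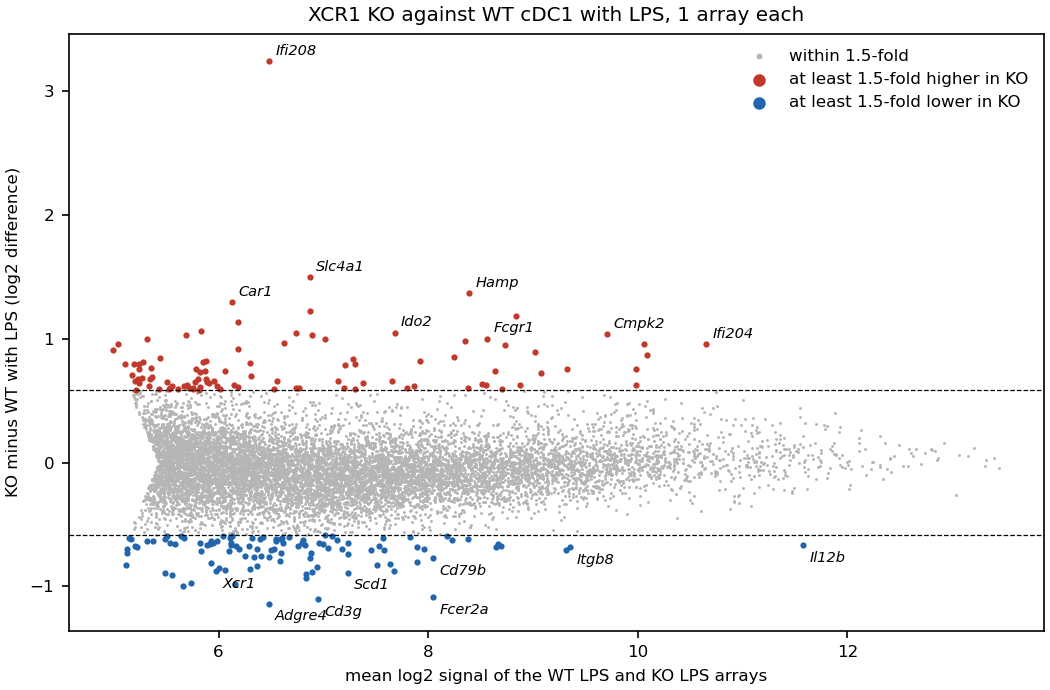
Log2 difference KO minus WT with LPS (vertical axis) against the mean log2 signal of the 2 arrays (horizontal axis), 1 point per measured gene, with dashed lines at 1.5-fold. Ifi208 stands alone at 3.24, and the 203 coloured genes lie at both sides of the grey band, 99 above and 104 below.

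The other genotype pair, cells with LPS and XCL1, shares no array with this one, so values from it are given beside each gene. There 358 of 10366 genes (3.45%) were past 1.5-fold. The other pair gave 180 of the 203 LPS calls a difference of the same sign. The same share over all measured genes is not given here, so there is no background beside this count. Both pairs leaned the same way, with 39.6% of genes above 0 with LPS and 42.8% with LPS and XCL1. Of the 180 genes, 39 were called higher in both pairs and 28 lower in both, and none of the 203 was called in opposite directions. These 67 genes are 33.0% of the calls with LPS and 18.7% of those with LPS and XCL1. The higher calls had a median difference of 0.48 in the other pair and the lower calls -0.40. Of 64 calls with a mean signal of at least 7, 37 were called in the same direction in both pairs. Adding XCL1 within a genotype gave smaller numbers, 0.534% of genes in WT and 0.995% in KO, though these comparisons share an array with the genotype comparison. The labels do not say whether a genotype's 2 arrays had separate mice or preparations behind them, so the recurrence is not a repeat across mice.

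**Figure D2:**
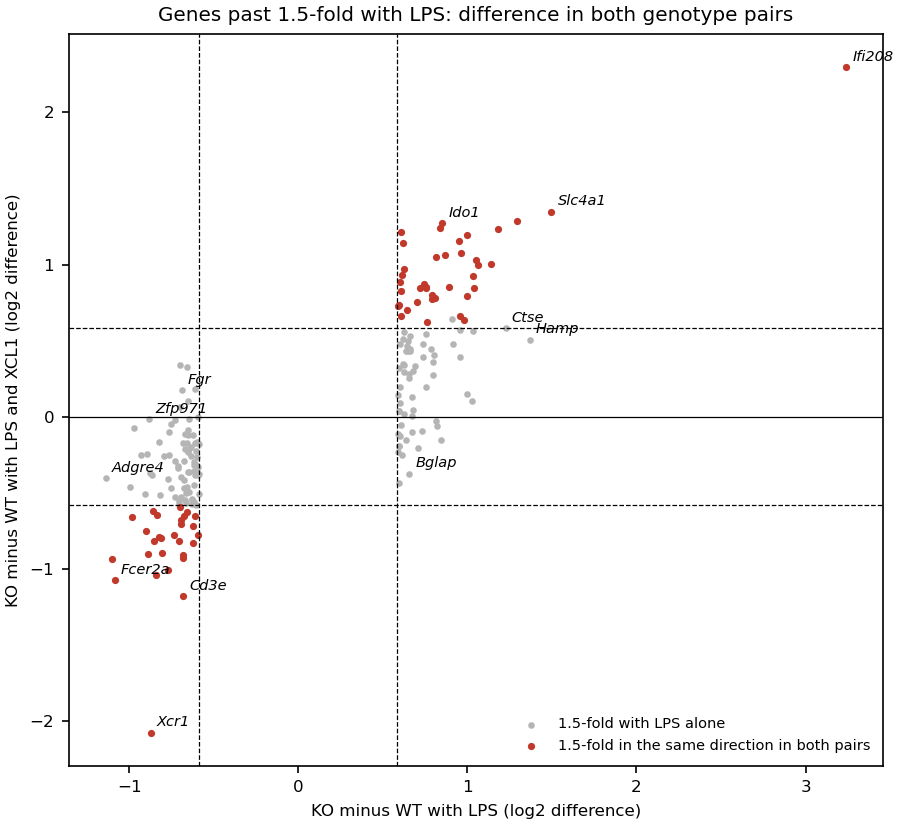
Log2 difference KO minus WT with LPS (horizontal axis) and with LPS and XCL1 (vertical axis) for the 203 genes past 1.5-fold with LPS, with dashed lines at 1.5-fold. Red marks the 67 genes past 1.5-fold in the same direction in both pairs, and a grey point beyond both lines was below the signal limit on both arrays of the other pair; Ifi208 lies at the upper right, Xcr1 at the bottom, and Hamp, Adgre4 and Zfp971 are among the genes within 1.5-fold in the other pair.

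Most listed antiviral genes of the interferon response had a higher signal in the KO, by small amounts. Of 36 measured antiviral interferon-stimulated genes, 34 were above 0, with a median difference of 0.30 against -0.05 for all genes. In this list 5 were past 1.5-fold, all higher. Over all measured genes 39.6% were above 0 and 0.947% were past 1.5-fold higher. These all-gene shares, and 0.994% lower, are also the background for the lists below. The median of the same list in the other pair was 0.38. Most members differed by less than 1.5-fold, and the list was chosen with earlier results of these data known, so its direction is a description.

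The 5 genes were Cmpk2, a mitochondrial nucleotide kinase, Slfn5, Mx2, Isg20 and Phf11d. Cmpk2 gave 9.19 in WT and 10.22 in KO, a 2.05-fold difference, and 9.32 and 10.24 with XCL1. Its KO signals both lay above both WT signals. For this gene and those below, the choice by a large difference with LPS partly fixed such an order in advance, so it adds no support. Slfn5, of the Schlafen family, gave 9.61 and 10.36 (0.75, with 0.55 in the other pair). Mx2, a dynamin-like GTPase that blocks viruses, gave 8.72 and 9.44 (0.72 and 0.85). Isg20, an exonuclease that degrades viral RNA, gave 8.19 and 8.83 (0.63 and 0.43). Phf11d gave 8.08 and 8.68 (0.60 and 0.88). A further Schlafen gene outside the list, Slfn4, went from 9.66 to 10.53 (0.87 and 1.06) and was named after its values were seen.

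Close to the threshold but within it were Rsad2 (viperin, an inhibitor of viral replication), at 10.46 in WT and 11.03 in KO, a difference of 0.57, and Ifit1, which binds viral RNA, at 10.75 and 11.25. Smaller differences were those of Isg15, a ubiquitin-like modifier, at 10.30 and 10.47, and Oasl2, of the oligoadenylate synthetase family, at 11.23 and 11.42. The exceptions below 0 were Ifit3b, at 6.28 and 5.87, and Epsti1, at 10.19 and 10.12. The transcription factor genes Irf7 and Stat2, which act in the interferon pathway, differed by 0.37 and 0.35, and Irf9 by 0.02.

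The interferon-inducible GTPases, which act on vacuoles of intracellular pathogens, were all above 0 without any reaching 1.5-fold. The 12 measured members ran from 0.06 for Gbp10 to 0.54 for Gbp3, with a median of 0.25, and in the other pair the median was 0.49 with 3 members past 1.5-fold. Gbp3 gave 7.84 in WT and 8.38 in KO, Irgm2 9.55 and 10.02, and Igtp 9.57 and 9.97. Gbp6 and Gbp11 lay below the limit on both arrays. With centring, 1 GTPase and 7 antiviral genes were past 1.5-fold, all higher. Gbp3 was past it with cyclic loess too (0.59). The list of nucleic acid sensing genes did not lean this way. Of its 13 measured members 6 were above 0 and 7 below, with a median of -0.03 and none past 1.5-fold. In the other pair 9 were above 0 and 4 below, with a median of 0.21.

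The gene with the largest difference was Ifi208, of the PYHIN family, whose members include interferon-inducible DNA sensors and lie side by side on chromosome 1. Its signal was 4.86 in WT, below the limit, and 8.10 in KO, an at least 6.38-fold difference. With XCL1 it gave 5.46 and 7.76, a difference of 2.30. Both KO signals stood more than 2 log2 units above both WT signals, an order that naming the gene for its large difference partly fixed. Of 9 measured PYHIN genes, 3 were past 1.5-fold, all higher, and 8 were above 0, with a median of 0.43. Over all measured genes 0.947% were that much higher and 39.6% were above 0. Ifi204 gave 10.18 and 11.13, a 1.94-fold difference, with 0.66 in the other pair. Mndal, its neighbour among measured genes, gave 9.58 and 10.53, also 1.94-fold, with 0.57 in the other pair. Ifi209, Ifi207 and Ifi213 differed by 0.44, 0.43 and 0.34, Ifi205 by 0.16, and Aim2, the inflammasome DNA sensor, by -0.37. PYHIN genes are close copies of each other, and how far their probe sets share sequence was not tested.

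The upstream region is shown for the 3 named genes past 1.5-fold whose RefSeq promoter holds an interferon-stimulated response element (ISRE), the letters GAAANNGAAA on either strand. The 250 bases before the start are given 5′ to 3′ on the gene's strand (GRCm38.p6), in lower case with the element in capitals. Ifi208 is at chr1:173673415-173673664 (plus strand), Mndal, of whose 2 promoters 1 is shown, at chr1:173880188-173880437 (minus strand), and Slfn5 at chr11:82951852-82952101 (plus strand).
Ifi208: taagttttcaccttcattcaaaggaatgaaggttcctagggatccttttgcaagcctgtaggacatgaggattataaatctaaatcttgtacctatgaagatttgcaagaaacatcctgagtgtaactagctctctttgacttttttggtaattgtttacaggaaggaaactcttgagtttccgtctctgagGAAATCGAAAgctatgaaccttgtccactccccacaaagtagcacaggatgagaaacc
Mndal: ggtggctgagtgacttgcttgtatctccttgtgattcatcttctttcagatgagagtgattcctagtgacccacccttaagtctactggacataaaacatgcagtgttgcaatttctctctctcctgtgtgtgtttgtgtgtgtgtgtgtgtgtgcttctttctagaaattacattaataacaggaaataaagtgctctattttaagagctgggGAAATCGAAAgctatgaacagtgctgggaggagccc
Slfn5: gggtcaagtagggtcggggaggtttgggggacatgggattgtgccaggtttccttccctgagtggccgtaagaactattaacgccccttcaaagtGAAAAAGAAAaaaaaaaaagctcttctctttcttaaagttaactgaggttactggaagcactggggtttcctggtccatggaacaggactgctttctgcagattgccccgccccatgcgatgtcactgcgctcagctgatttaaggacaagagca
The element begins 58 bases before the start in Ifi208, 36 before it in Mndal and 155 before it in Slfn5. The Ifi208 and Mndal sequences share a run of 20 bases around it, ggaaatcgaaagctatgaac, and that run is in the promoters of 5 genes in the whole table, Ifi203, Ifi206, Ifi208, Ifi213 and Mndal, all of the PYHIN family. Of these, Ifi208, Ifi213 and Mndal were measured.

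The element was not common among the genes that differed. Over windows of 300 bases (250 before the start to 50 after), 4.04% of 8459 measured genes with a RefSeq promoter held it. Among those past 1.5-fold it was in 4 of 75 higher genes (5.33%), Ifi208, Mndal, Slfn5 and Mylk, and in 1 of 83 lower genes (1.20%), Plk2. Mylk (myosin light chain kinase, 0.59) and Plk2 (polo-like kinase 2, -0.68) are named for this count alone, after their values were seen. In the antiviral list 13 of 27 matched genes held it (48.1%), and in the GTPase list 7 of 7. The STAT element TTCNNNGAA was in 8.29% of measured genes, in 9 of 75 higher (12%) and in 10 of 83 lower genes (12%). Both searches covered both strands, and none of the 3 printed windows held the STAT element. A match is a description of the letters and not of a bound site, and Cmpk2, Phf11d, Isg20, Ifng and Fcgr1 had a promoter entry without an ISRE match in this window.

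Of the interferon genes themselves, Ifng was the 1 past 1.5-fold. It encodes interferon-gamma, a product mainly of lymphocytes, and gave 8.26 in WT and 9.21 in KO (0.95), with 8.05 and 9.20 in the other pair. The KO signals were both above the WT signals, an order that the choice of the gene at 1.5-fold partly fixed. Ifnb1, the type I interferon made after TLR4 signalling, lay below the limit on both arrays, at 3.79 and 3.82. The receptor genes differed little, with Ifnar1 at 0.01, Ifnar2 at -0.07, Ifngr1 at -0.25 and Ifngr2 at 0.01. Il12rb2, the signalling chain of the interleukin 12 receptor, gave 7.86 and 8.84 (0.98, with 0.64 in the other pair), and its neighbour Il23r, of the interleukin 23 receptor, 6.51 and 7.51 (1.00 and 0.79). Il7r, the interleukin 7 receptor chain, was higher too, at 9.67 and 10.30 (0.62 and 0.34), but within 1.5-fold with quantile normalization (0.58).

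Enzymes that use tryptophan and arginine included 3 higher genes of 14 measured, while 9 of the 14 lay below 0 and the median was -0.11. Ido2 gave 7.15 in WT and 8.20 in KO (1.05, with 1.03 in the other pair). Ido1, the enzyme that starts the breakdown of tryptophan and limits T cell growth, gave 7.82 and 8.67 (0.85 and 1.27). Nos2, the inducible nitric oxide synthase, gave 6.21 and 7.26 (1.04 and 0.85). These 3 genes had both KO signals above both WT signals, an order that their choice at 1.5-fold partly fixed in advance. Later enzymes of tryptophan breakdown had negative values, Kynu at -0.29 and Kmo at -0.13, and so did Arg2 at -0.30.

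Fcgr1, the high-affinity IgG receptor, gave 8.06 in WT and 9.06 in KO (1.00), with 8.06 and 9.26 in the other pair. H2-Q10, a nonclassical MHC class I gene, gave 8.25 and 9.43 (1.18 and 1.23), but its second probe set gave 6.56 and 6.49, a difference of -0.07, and the mean of the 2 probe sets was within 1.5-fold at 0.55. The other 19 measured genes of MHC class I presentation lay between -0.21 for H2-K1 and 0.35 for Pdia3, and none was past 1.5-fold.

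Of 18 measured inflammatory cytokines, 1 was higher and 1 lower, and with centring 2 were higher and 0 lower. Il12b, the shared chain of interleukins 12 and 23, gave 11.91 in WT and 11.25 in KO (-0.67, with -0.51 in the other pair), and was within 1.5-fold with centring (-0.57). Csf1, the macrophage growth factor, gave 7.06 and 7.70 (0.64 and 0.70). Within 1.5-fold, Il27, Il15 and Il6 differed by 0.55, 0.47 and 0.42, Il1b by 0.22 and Tnf by -0.21. Il12a, the partner chain of Il12b, differed by 0.10. Il27 was past 1.5-fold with centring and with cyclic loess (0.59). Tnfsf10, the death ligand TRAIL, gave 5.96 and 6.66 (0.70 and 0.75) and was the 1 of 20 measured TNF superfamily genes past 1.5-fold.

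Ccl17, a chemokine for T cells that carry CCR4, was the 1 CC chemokine of 12 past 1.5-fold, at 8.99 in WT and 8.33 in KO (-0.66, with -0.63 in the other pair). With centring Ccl17 was within 1.5-fold (-0.56), and Ccl7, at 5.60 and 6.17 (0.56), was past it on the higher side (0.66). Ccl7 was past it with quantile normalization too (0.59). Ccl22, which like Ccl17 lies on chromosome 8 and encodes a ligand of CCR4, gave 13.17 and 12.91. CXC and other chemokines were above 0 in 8 of 9 measured genes, with a median of 0.29 and none past 1.5-fold (Cxcl11 with centring). Cxcl9, Cxcl10 and Cxcl11, the interferon-inducible ligands of CXCR3, differed by 0.40, 0.29 and 0.54. The exception was Xcl1, the XCR1 ligand gene, at 7.91 and 7.59 (-0.32).

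Few genes of TLR4 signalling to NF-kB and of maturation differed. Tlr4 itself lay below the limit on both arrays, at 4.94 and 4.70, while its partners Ly96 (MD-2) and Cd14 gave 10.15 and 10.30, and 7.82 and 7.80. None of 22 Toll-like receptor and adaptor genes was past 1.5-fold, with a median of 0.00, and the 17 NF-kB genes stayed between -0.23 and 0.13. None of 24 maturation and co-stimulation genes was past 1.5-fold. Cd86, a ligand for T cell co-stimulation, gave 11.85 and 11.81, Cd40 11.43 and 11.37, and Ccr7, which guides dendritic cells to lymph nodes, 12.85 and 12.89. The largest negative values there were those of the tetraspanin Cd63 (-0.55) and the actin bundler Fscn1 (-0.39).

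Of 25 measured cDC1 identity genes, Xcr1 was the 1 past 1.5-fold, the median was -0.01, and 3 were lower in the other pair. Batf3 gave 6.93 in WT and 6.98 in KO, Cadm1 7.38 and 7.25, and Wdfy4, needed for cross-presentation, 9.15 and 8.90. The scavenger receptor Cd36 gave 8.40 and 7.83, within the threshold at -0.57 but past it in the other pair at -0.68. Gcsam gave 7.23 and 6.68 (-0.55 and -0.67), and Plet1 5.92 and 6.47 (0.55 and 0.42). Plet1 was past 1.5-fold with centring (0.65) and with quantile normalization (0.59). No gene of 24 for cross-presentation or of 14 for MHC class II presentation was past 1.5-fold. Axl, a receptor for dying cells (0.57), was so with centring and with cyclic loess (0.60). H2-Eb2, a class II gene outside the list, gave 7.28 and 6.38 (-0.90 and -0.76). The 27 measured genes of G protein signalling downstream of chemokine receptors had a median of 0.00 and none past 1.5-fold, with Gnai2, an inhibitory alpha subunit, at 10.44 and 10.63. Of 13 measured chemokine receptors, Xcr1 was the 1 past the threshold, and Ccr9 lay just inside it at -0.58 (7.13 and 6.55).

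Genes of lipid synthesis had a lower signal in the KO almost throughout. All 16 measured genes of fatty acid synthesis and elongation were below 0, with a median of -0.26, and 2 were past 1.5-fold. Scd1, which makes monounsaturated fatty acids, gave 7.67 in WT and 6.79 in KO (-0.89), with 7.85 and 6.94 in the other pair. Fads1, a desaturase of polyunsaturated fatty acids, gave 6.87 and 6.10 (-0.76, with -0.25 in the other pair). Fasn, the fatty acid synthase, gave 8.45 and 8.16, and Srebf1, the transcription factor of the pathway, 6.73 and 6.59. Cholesterol synthesis was below 0 in 16 of 17 genes, with a median of -0.29 and none past 1.5-fold. Lss and Dhcr7, late enzymes of the pathway, differed by -0.57 and -0.53, and Sqle by -0.33. With centring, 14 of 17 cholesterol genes and 15 of 16 fatty acid genes remained below 0, with medians of -0.19 and -0.16 beside 0.05 for all genes.

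Smaller negative medians were seen for the lysosome (-0.15, 21 of 25 below 0), the proteasome (-0.16, 27 of 30) and oxidative stress genes (-0.16, 15 of 18), beside -0.05 for all genes. In the lysosome list Gusb, a glucuronidase, gave 8.98 in WT and 8.30 in KO (-0.68 and -0.93), and Hexa, a hexosaminidase, 7.56 and 6.91 (-0.65 and -0.49). Both calls ended with centring (-0.58 and -0.55), and that of Hexa also with cyclic loess (-0.58). Ctse, an aspartic protease, went the other way at 6.26 and 7.48, a 2.34-fold difference with 0.58 in the other pair. No proteasome or oxidative stress gene was past 1.5-fold. With centring the medians were -0.05 for the lysosome, -0.06 for the proteasome and -0.06 for oxidative stress genes, beside 0.05 for all genes. Genes below 0 were then 16 of 25, 18 of 30 and 10 of 18. Oxidative phosphorylation had a median of -0.12 and 1 lower gene of 41, Ndufs7 of complex I, at 8.54 and 7.92 (-0.62 and -0.83). With centring its median was -0.02, again beside 0.05 for all genes. Ndufs7 was within 1.5-fold with centring (-0.52), cyclic loess and quantile normalization (-0.57 in both). Cytosolic ribosomal proteins had a median of -0.02 and none of 51 past 1.5-fold, and none of 40 cell cycle genes was. In 23 of the 45 pathway lists no gene was past 1.5-fold.

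**Figure D3:**
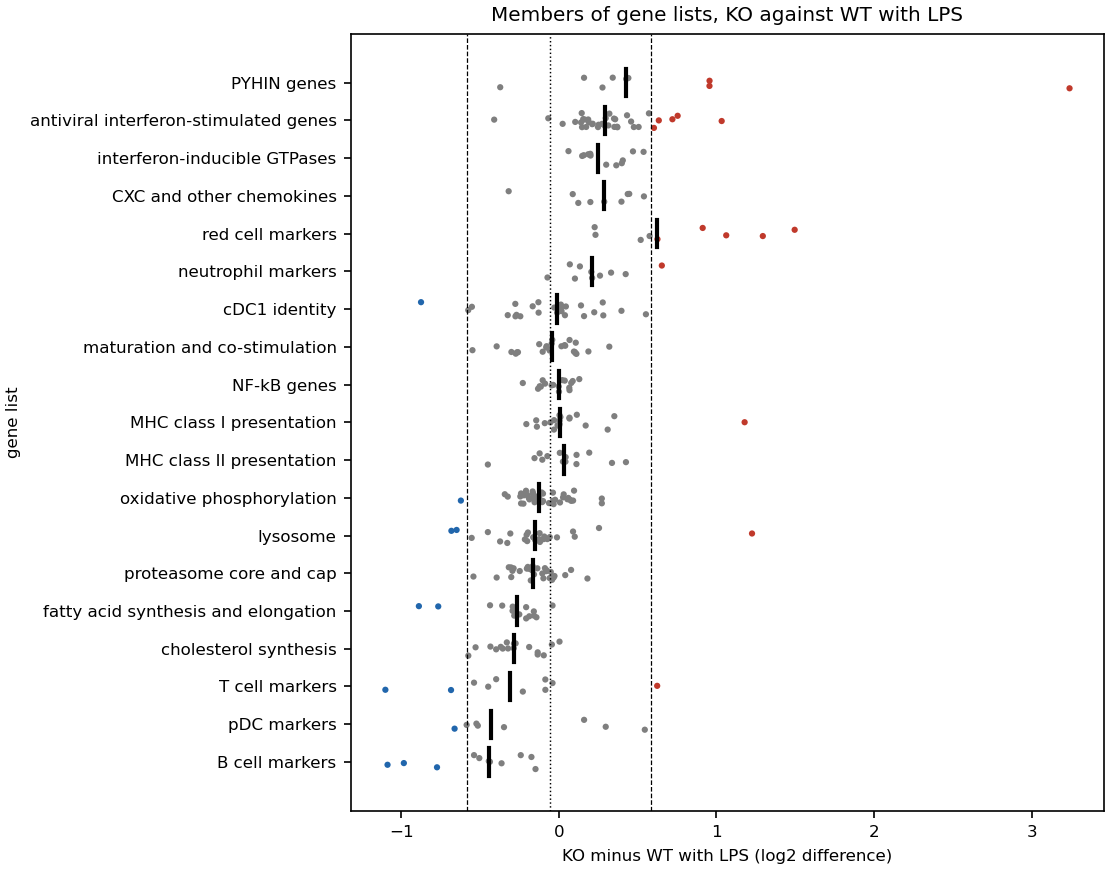
Log2 difference KO minus WT with LPS for the measured members of 19 gene lists, 1 point per gene, with a black bar at each list's median, a dotted line at the median of all measured genes (-0.05) and dashed lines at 1.5-fold. Red cell markers have the highest median of those drawn (0.63) and B cell markers the lowest (-0.44), and antiviral interferon-stimulated genes lie almost entirely right of the dotted line.

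Kinases, adhesion and feedback genes gave single differences. Itga1, an integrin chain for collagen, gave 5.62 in WT and 6.76 in KO (1.14, with 1.00 in the other pair), and Itgb8, the integrin chain with which dendritic cells activate TGF-beta, 9.70 and 9.01 (-0.68 and -0.91), just within 1.5-fold with centring (-0.58). Nid1, a basement membrane protein, gave 6.33 and 5.52 (-0.81), and its second probe set also differed downward, by -0.66. Among kinases, Yes1 of the Src family gave 7.36 and 6.52 (-0.84 and -1.04), Prkcb 8.69 and 8.08 (-0.61 and -0.66), and Prkar2b, a regulatory subunit of protein kinase A, 6.15 and 7.11 (0.96 and 1.08). Prkcb was within 1.5-fold with centring (-0.51), cyclic loess and quantile normalization (-0.57 in both). Socs5, an inhibitor of cytokine signalling, was lower at 6.19 and 5.48 (-0.71 and -0.34), and so was the phosphatase gene Dusp4 at 6.46 and 5.75 (-0.71 and -0.32). Slc15a2, a peptide transporter, gave 6.43 and 5.58 (-0.85 and -0.82), and Slc7a8, an amino acid transporter, 8.57 and 9.19 (0.63 and 0.30).

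Hamp, which encodes hepcidin, the hormone that blocks iron export, gave 7.71 in WT and 9.07 in KO, a 2.58-fold difference. It was the 1 of 13 measured iron handling genes past 1.5-fold, of which 6 were above 0 and 7 below, with a median of -0.01. In the other pair Hamp gave 7.35 and 7.86, so the array with LPS alone stood apart from the other KO array. Other large differences were in genes of no list. Carhsp1, an RNA-binding protein, gave 6.37 and 7.41 (1.03 and 0.56). On the lower side Adgre4, an adhesion receptor, gave 7.05 and 5.91 (-1.14), with 7.0 and 6.60 in the other pair. Atp1b1, a subunit of the sodium pump, gave 8.11 and 7.24 (-0.88 and -0.37), Wdr5, a subunit of histone methyltransferase complexes, 7.30 and 6.37 (-0.93 and -0.25), and Hdac9, a histone deacetylase, 6.78 and 5.94 (-0.83 and -0.65). E2f6, a repressor of the E2F family, gave 6.49 and 5.63 (-0.86 and -0.39), Tmem71 6.73 and 5.87 (-0.86 and -0.62), and Zfp971 7.34 and 6.45 (-0.88 and -0.02). Zfp971 therefore differed with LPS alone and not in the other pair, a contrast that was not tested.

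**Figure D4:**
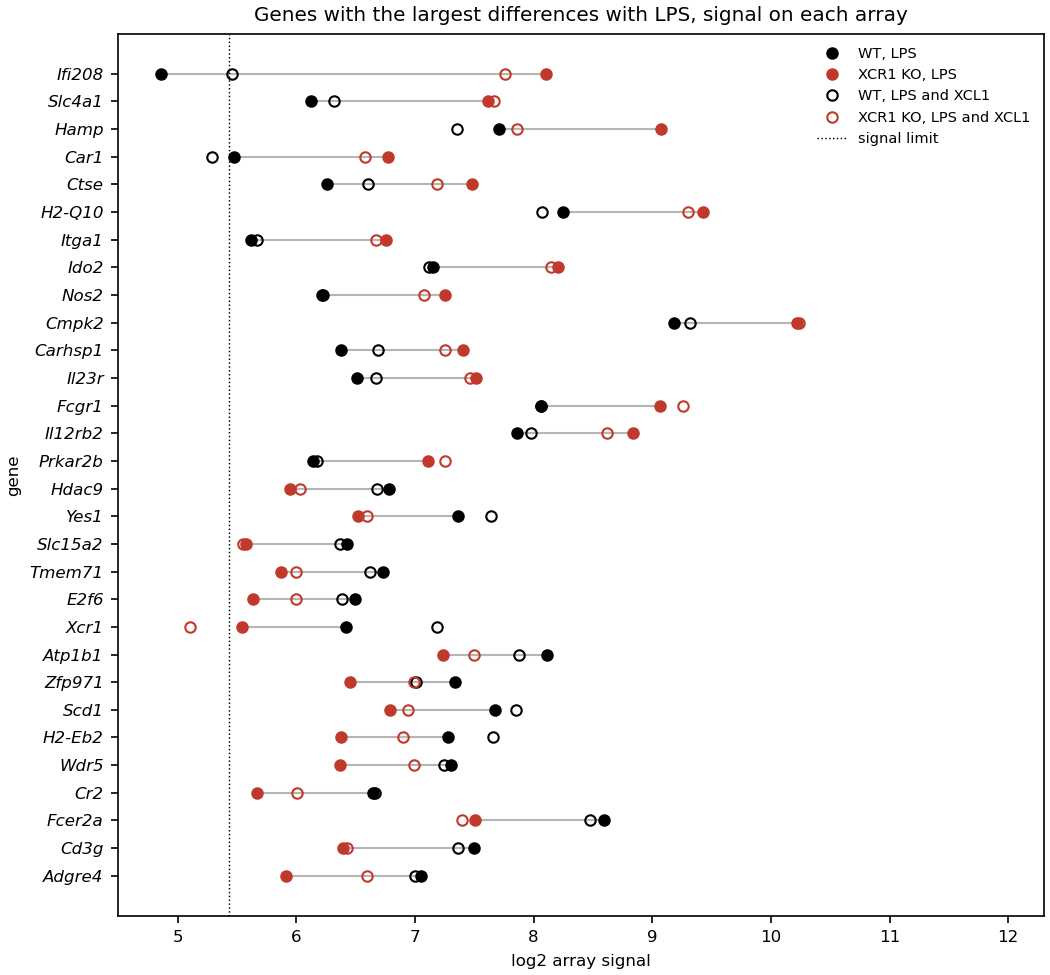
Log2 signal on each of the 4 arrays for the 15 genes with the largest positive and the 15 with the largest negative KO minus WT difference with LPS after signals below the limit were raised to it; signals are drawn as measured, the grey line joins the 2 arrays with LPS alone and the dotted line is the signal limit of 5.43. Filled points are LPS alone and open points LPS with XCL1; for most genes the open points lie near the filled ones of the same genotype, while the genotypes lie nearer each other with XCL1 for Hamp and Adgre4.

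Markers of other cell types were present on both arrays and differed between them, and in a bulk sample fewer cells of a type and less RNA per cell cannot be told apart. All 11 measured B cell markers were lower in signal in the KO, with a median of -0.44 and 3 of them past 1.5-fold. Their summed linear signal was 3169 in WT and 2266 in KO. Over all measured genes 0.994% were past 1.5-fold lower and 39.6% were above 0. Fcer2a, the low-affinity IgE receptor, gave 8.59 and 7.50 (-1.09, with -1.08 in the other pair), Cr2, a complement receptor, 6.65 and 5.67 (-0.98 and -0.66), and Cd79b, of the B cell receptor, 8.43 and 7.66 (-0.77 and -1.01). None of the B cell list lay below the limit on both arrays.

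T cell markers had 9 of 10 below 0 and a median of -0.31, but a summed signal of 2021 in WT and 2130 in KO, with Il7r, the brightest of the list, higher. Cd3g gave 7.50 in WT and 6.40 in KO (-1.10 and -0.94), and Cd3e 8.23 and 7.55 (-0.68 and -1.18), the latter just within 1.5-fold with centring (-0.58). NK cell markers had a median of -0.23 with 0 of 7 past 1.5-fold, and Klrb1c lay below the limit on both arrays. Markers of plasmacytoid dendritic cells had a median of -0.43 and a summed signal of 3777 and 3824, with 5 of 8 below 0 and 3 above. The transcription factor Spib was lower, at 7.33 and 6.67 (-0.66 and -0.47), a call that ended with centring. Siglech gave 8.66 and 8.14 (-0.52), and Klk1 went the other way at 9.41 and 9.95 (0.55 and 0.47). Ifng, Il12rb2 and Il7r are also expressed by T and NK cells, whose markers had these negative medians, and the part of those cells in the differences was not tested.

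Red cell markers were all above 0 in their 9 measured members, with a median of 0.63 and 5 past 1.5-fold. Their summed signal was 893 in WT and 1434 in KO. Over all measured genes 39.6% were above 0 and 0.947% were past 1.5-fold higher. Slc4a1, the anion exchanger of the red cell membrane, gave 6.12 and 7.62, a 2.82-fold difference, with 6.32 and 7.67 in the other pair. Car1 and Car2, the carbonic anhydrases, gave 5.48 and 6.77 (1.29 and 1.29), and 8.24 and 8.86 (0.63 and 0.55). Rhag, a membrane protein of the Rh complex, went from 5.30 to 6.36 (at least 0.93), and Ank1, which ties the membrane to the cytoskeleton, from 5.73 to 6.64 (0.91 and 0.48). A second probe set of Ank1 gave 0.17. The erythroid transcription factor Klf1 lay below the limit on both arrays, at 5.04 and 5.41.

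Neutrophil markers were above 0 in 9 of 10, beside 39.6% of all measured genes, with a median of 0.21 and a summed signal of 2171 and 2511. The 1 past 1.5-fold was Camp, an antimicrobial peptide, at 5.56 and 6.21 (0.65 and 0.28). Over all measured genes 0.947% were that much higher. Ly6g and Retnlg lay below the limit on both arrays. Macrophage and monocyte markers had a median of 0.13, with 8 of 13 above 0 and 5 below, Fcgr1 the 1 past 1.5-fold, and C5ar1 and C1qc below the limit. Csf1r, the CSF1 receptor, differed by -0.32 and Lyz2 (lysozyme) by -0.23. In the small lists of platelets and of mast cells and basophils, 2 markers each were measured, and Gp9 (5.47 and 6.29) and Hdc (6.91 and 7.70) were higher. Mzb1, a plasma cell marker, was lower at 6.99 and 6.19, and so was Cd7 of the cDC2 list at 7.93 and 7.23. The 6 measured plasma cell markers had a median of -0.14, with 5 below 0 and 1 above. The 5 measured cDC2 markers had a median of -0.24, with 4 below 0 and 1 above, and Mgl2, Clec10a and Clec4a4 lay below the limit on both arrays. The part of these cell types in the genotype differences was not tested.

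Neighbouring genes and chromosomes gave a few further counts. In 5 places 2 genes that are neighbours among the measured genes were both higher, namely Ifi204 and Mndal on chromosome 1, Car1 and Car2 on chromosome 3, Il12rb2 and Il23r on chromosome 6, Ido2 and Ido1 on chromosome 8, and the secretory genes Dcpp2 and Dcpp3 on chromosome 17. Dcpp2 gave 4.98 in WT, below the limit, and 5.74 in KO, and was within 1.5-fold at 0.31 with dim signals raised. Dcpp3 gave 5.52 and 6.12 (0.61), and 4.38 and 5.60 in the other pair, or 0.17 there with dim signals raised. No 2 neighbours were both lower. Chromosome 3 had the highest share of genes past 1.5-fold among the autosomes, 4.83% of 497, with 17 higher and 7 lower. Chromosome 5 had the lowest at 0.716%, and the share over all measured genes was 1.94%. Some calls on chromosome 3, in both directions, rested on a signal below the limit. With dim signals raised, Slc44a5 went from 0.80 to 0.16 and Lce1a2 from -0.83 to -0.10. The shares by chromosome were not recounted in this way. The higher genes of chromosome 3 included Car1, Fcgr1, Tnfsf10, Csf1 and Cnn3, a calponin that binds actin, at 8.58 and 9.47 (0.89 and 0.85). On chromosome 9, where Xcr1 lies, 4 genes were higher and 7 lower of 609 (1.81%), near the 1.94% over all measured genes.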

How the data were processed

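Biotin-labelled sense cDNA from TRIzol-extracted RNA was read on mouse MoGene 2.0 ST arrays, 1 per group. The authors deposited RMA values on the log2 scale, 1 per probe set, per the labels. Software and annotation build were not given in the sources used here. RMA brings the signals of the arrays to a like distribution, so a shift of most genes one way in the cells cannot be read from these values. The measured genes still leaned one way, with 39.6% above 0. Of 41345 probe sets, 25335 were listed in the array annotation, 23521 with 1 symbol, 1814 with several and 16010 unnamed here; 23328 of the 1-symbol probe sets were found in a RefSeq table (GRCm38.p6), which changed 0 symbols. Where a gene had several probe sets (755 measured genes), the brightest on average was taken. The table holds no detection flags, and arrays have no count depth.

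From these values the difference of the KO and WT arrays with LPS was computed, with no test. X- and Y-linked genes (916) and genes without a chromosome (189) were left out, and 4666 predicted, small RNA and receptor genes were counted apart. Lists are described by their counts and medians. Genes were named by a rule: the 15 largest differences each way with dim signals raised to the limit, up to 4 members of each list, Xcr1, Xcl1 and the 5 calls least alike in the other pair. Other list members, Slfn4, second probe sets, sex-linked genes, Mylk, Plk2, Cnn3, Slc44a5, Lce1a2, Dcpp2 and Dcpp3 were named for a check or a count, or after their values were seen. The members and lists were chosen with earlier results of these data known.

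The 11 alternatives were a 2-fold threshold, no limit or a stricter limit on signal (6.91, the 75th percentile), the limit on any of 4 arrays, dim signals raised to the limit, cyclic loess (span 0.7, 3 iterations), quantile normalization, subtracting from each array its median over genes past the limit (centring), averaging probe sets, and keeping predicted or X- and Y-linked genes. The counting was tested on simulated data with planted changes of 2-fold or more and less spread than in these data. It therefore cannot show how calls near 1.5-fold behave. Promoters (250 bases before to 50 after the start) are RefSeq's, GRCm38.p6, with an entry for 8459 of the 10459 measured genes. Python 3.11.15, pandas 2.3.3, numpy 2.4.6, matplotlib 3.10.9, R 4.3.3 and limma 3.58.1 (for loess and quantile normalization) were used.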

Additional observations from a re-analysis of the deposited data

Results flagged for a closer look

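Some genes past 1.5-fold with LPS had the opposite sign in the pair with LPS and XCL1, and the difference between the pairs was not tested. On the lower side these were Gabarapl1, an autophagy gene (-0.65 with LPS and 0.10 with XCL1 added), Fgr, a Src family kinase (-0.69 and 0.17), Smim27 (-0.70 and 0.34) and Sim1 (-0.66 and 0.33). On the higher side they were Gp9, a platelet membrane glycoprotein (0.82 and -0.06), Clpsl2 (0.59 and -0.44), Bglap, which encodes osteocalcin (0.66 and -0.38), and Uchl3, a deubiquitinase (0.61 and -0.26). For Smim27, Sim1, Clpsl2 and Uchl3 the lower signal with LPS lay below the limit, and raising it to the limit left differences of -0.04, -0.48, 0.40 and 0.21. In all, 23 of the 203 genes had the opposite sign, 12 of them with their lower signal below the limit.

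Sex-linked genes, which the comparison leaves out, gave signal on the WT array with LPS: Xist 7.95, Eif2s3y 8.57, Uty 8.27 and Kdm5d 7.07. The Y-linked genes did so on every array, and Xist on the WT arrays. What this says about the mice behind the arrays was not tested.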

How the results depend on the processing

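The counts with LPS were 99 higher and 104 lower, and 39 and 28 in both genotype pairs. At 2-fold they were 15 and 3, and 6 and 1. With no limit on signal 179 genes were higher, and with the stricter limit 42 were higher and 48 lower. With centring there were 185 higher and 48 lower genes, and 72 and 14 in both pairs. The median of all measured genes with LPS was then 0.05. The other 33 counts stayed within 1.5 times the reported ones. Of 69 named genes past 1.5-fold, all 69 kept their sign with dim signals raised, cyclic loess, quantile normalization, centring and the mean of probe sets, and 65, 65, 66, 58 and 67 stayed past 1.5-fold. The 11 that left it with centring were Ccl17, Il12b, Spib, Ndufs7, Gabarapl1, Gusb, Hexa, Itgb8, Prkcb, Cd3e and Sim1. Ifi208 was at 2.67 with dim signals raised. With the mean of probe sets, H2-Q10 was at 0.55 and Ank1 at 0.54, both within 1.5-fold. Of the list medians, 3 changed by more than the spread, those of platelet markers (0.16 with no limit) and of mast cell and basophil markers (0.13 with no limit and 0.79 with the stricter limit), lists with 2 measured members. The 2-fold threshold and the kept classes of genes were applied to counts only. No paired analysis was possible because the groups compared share 1 replicate number, with 1 array each. An additive fit of both factors over the 4 arrays, with 1 residual degree of freedom, was not made. The number of arrays limits every value: no spread between samples of a group can be given.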

Other observations

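Among the genes past 1.5-fold, 147 belonged to none of the lists, and some of those with the largest differences in both pairs are given here, chosen after their values were seen. Higher in the KO were Fap, a membrane protease known from fibroblasts (6.87 in WT and 7.70 in KO, 0.84, with 1.24 in the other pair), Sgcb, a sarcoglycan (7.51 and 8.33, 0.82 and 1.05), Adap2 (8.94 and 9.70, 0.75 and 0.85) and Chil3, a chitinase-like protein of myeloid cells (7.56 and 8.18, 0.61 and 0.93). Hemgn, a gene of red cell precursors, was higher too (5.41 and 6.17, at least 0.74, with 0.84 in the other pair), beside the red cell markers already given. Lower were Cmah, the enzyme that makes N-glycolylneuraminic acid (7.92 and 7.10, -0.82 and -0.80), Papss2, which makes the sulfate donor (8.29 and 7.49, -0.80 and -0.90), Fcmr, the IgM receptor (7.60 and 6.87, -0.74 and -0.78), B4galnt1, a ganglioside synthase (8.31 and 7.61, -0.69 and -0.71), Hsd17b11 (9.67 and 8.97, -0.70 and -0.60) and Egln1, an oxygen-sensing prolyl hydroxylase (7.11 and 6.49, -0.62 and -0.72). Both KO signals of each of these genes lay on 1 side of both WT signals. Their choice by large differences in both pairs largely fixed this in advance, so it adds no support. None of these differences has a replicate check.

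Aldh1a2, which makes retinoic acid, was also higher, at 6.81 and 7.60 (0.79, with 0.45 in the other pair), and Anxa1 at 8.27 and 9.01 (0.74 and 0.48). Both were chosen after their values were seen. Another annexin gene, Anxa3, gave -0.27 and -0.38.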
